A study of Rattus norvegicus with 24 samples.

Results

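The kinesin and dynein motor genes were 60 of the 14217 rat genes that had a probe set with exactly 1 gene symbol in the platform annotation. They were taken by symbol: kinesins named Kif with a number, kinesin light chains (Klc), axonemal dynein chains (Dnah, Dnai, Dnal), cytoplasmic dynein chains (Dync), dynein light chains (Dynl) and numbered dynactin subunits (Dctn). The brightest of the probe sets of a gene stood for it, and 39 of the 60 genes had a single probe set. A further 8 motor probe sets carried several symbols and were left out. By the role of their products the 60 genes comprised 11 spindle kinesins, 15 cargo kinesins and kinesin light chains, 10 genes of cytoplasmic dynein and dynactin, 7 dynein light chains, 8 genes of transport within cilia and flagella, and 9 axonemal genes.

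Testes of Brown Norway rats aged 4 months (young) or 18 months (aged) were digested with collagenase and trypsin, and pachytene spermatocytes and round spermatids were enriched from them on a STAPUT gradient, to a stated purity above 83%. RNA from each fraction was hybridised to Affymetrix arrays, with 6 rats per age and 24 arrays in all, and the same number in the labels joins the fractions of a rat. All groups were of 1 strain and no treatment was labelled, so age and fraction were the only labelled differences. A fraction holds many cells, so fewer cells of a type and less RNA per cell cannot be told apart.

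Kinesins walk along microtubules, most of them toward the plus end, and dyneins walk toward the minus end. Spindle kinesins slide, align or shorten the microtubules that separate chromosomes in the meiotic divisions, and several act in the midbody during cytokinesis. Cargo kinesins and cytoplasmic dynein, which needs the dynactin complex, carry organelles and RNA. Axonemal dyneins bend the sperm tail, which round spermatids begin to build, and the transport motors of cilia supply its assembly.

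Levels are log2 signals. A level is compared here between samples for 1 probe set and never between genes, because probe sets differ in how strongly they bind. By rank of signal, 51 of the 60 motor genes lay above the median probe set in young pachytene spermatocytes, 49 in aged pachytene spermatocytes, and 50 in each age of round spermatids. Of all 14217 genes, each likewise by its brightest probe set, 66.6% to 68.5% lay above it in the 4 groups. The 5 genes below the median in all 4 groups were Kif13a, Kif18a, Kif1b, Kif1c and Kif6, and their differences are those of dim signals. Also below it at both ages were Dync1i1, Kif14, Kif21a, Kif26b and Kif5c in round spermatids, and Dnah17, Kif12, Kif1a and Kif7 in pachytene spermatocytes. Kif5c and Dynlt3 lay below it in aged pachytene spermatocytes as well. Changes of these genes in those fractions likewise involve dim signals. Gene positions are given from the RefSeq annotation of GRCr8, in which all 60 motor genes were placed.

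The labelled cell types were checked against their markers. Of 11 pachytene markers 9 were lower in round spermatids, and all 12 markers of late spermiogenesis were higher there. Of 12 Sertoli cell markers, 10 were lower in round spermatids, and their mean level stood 3.95 ± 0.32 (SD, n = 6) above the array median in young pachytene fractions against 3.02 ± 0.16 in aged ones. In round spermatids it stood 1.20 ± 0.20 above the median in young and 0.60 ± 0.13 in aged fractions. The late spermiogenesis list stood 6.87 ± 0.46 above the median in young pachytene fractions (6.39 to 7.50) and 6.13 ± 0.21 in aged ones (5.97 to 6.52). The spermatogonial list had 5 of 9 markers lower in aged pachytene and 4 of 9 lower in aged round spermatids, and the round spermatid and acrosome list 3 of 8 and 2 of 8 lower. In aged pachytene fractions 2 of 6 peritubular and 2 of 5 endothelial and blood markers were higher, and 2 of 8 macrophage and 1 of 6 Leydig cell markers lower, while none of these 4 lists had a marker called in aged round spermatids. Of the Sertoli cell markers 10 of 12 were lower in aged pachytene (median −1.08) and 9 of 12 in aged round spermatids (median −0.56). Late spermiogenesis markers were lower for 11 of 12 and 3 of 12, and neither list had a marker called higher. Over all genes 25.6% were higher and 19.1% lower in aged pachytene spermatocytes, and 12.4% and 12.5% in aged round spermatids. Between the cell types 7 of 8 macrophage and 5 of 6 peritubular markers were higher in round spermatids, while 49.2% of all genes were. These lists moved beside the motor genes, and their part in the motor results was not tested. Among the young rats, the pachytene arrays of rats 1, 10 and 11 stood apart from the rest on the first principal component, which held 73.9% of the variance, and they held the highest late spermiogenesis values. On it they lay at −86.3, −47.1 and −44.0, the other young arrays at −7.4 to 3.8 and the aged arrays at 16.2 to 39.6. This component thus also separated the ages, and these were the young arrays farthest from the aged ones. Leaving them out leaves 3 young against 6 aged rats, which by itself can shrink changes with age and lose calls. They were chosen on pachytene arrays and were left out of the round spermatid tests as well. Calls of a change with age in motor genes that were lost without these 3 rats are named with their values beside the result. For the lists of other genes the lost calls are not named. Leaving out these rats lowered the calls over all 31042 probe sets from 11643 to 7651 in pachytene spermatocytes. In round spermatids the calls fell from 5320 to 1705, so calls were lost across the series and not only among motor genes.

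Age was compared within each fraction, after quantile normalization of its 12 arrays. Of the 60 motor genes 16 passed the test in the same direction in both fractions, 12 of them higher and 4 lower in aged rats, and none passed in opposite directions. Of all 14217 genes 14.8% passed in the same direction in both, 8.18% higher and 6.64% lower. Both comparisons use the same rats. Without young rats 1, 10 and 11, 5 of the 16 passed in both fractions, namely Kif18b, Kif20a, Kif22, Kif3b and Dctn4, all of them higher, and none of the 4 that fell did. The share of all genes that kept both calls without these rats was not counted. The 12 were Kif18b, Kif20a, Kif20b, Kif22 and Kif2a among the spindle kinesins, Dctn4, Dctn5, Dctn6 and Dync1li2 of dynein and dynactin, Klc4, Kif3b and Dnali1. The 4 that fell were Kif5b, Kif21a, Kif7 and Dynlt5, with Kif21a dim in round spermatids and Kif7 dim in pachytene spermatocytes. A promoter window of 250 bases was found for 14 of these 16 genes, and not for Kif7 and Dctn6. The regulatory sequence just before the start of such genes is shown for the 4 whose window overlaps no annotated gene. The windows are from RefSeq on GRCr8 and are written 5′ to 3′ on the strand of the gene. Capitals mark CCAAT, the box bound by NF-Y, or its reverse complement ATTGG. The others searched on both strands were TTTGAA (the cell cycle homology region), TGACGTCA (the cAMP response element) and GTTGCC (part of the X-box bound by RFX factors), which none of these 4 windows held. No motif overlapped another in these windows.
Kif20a, chr18:26504172-26504421, plus strand: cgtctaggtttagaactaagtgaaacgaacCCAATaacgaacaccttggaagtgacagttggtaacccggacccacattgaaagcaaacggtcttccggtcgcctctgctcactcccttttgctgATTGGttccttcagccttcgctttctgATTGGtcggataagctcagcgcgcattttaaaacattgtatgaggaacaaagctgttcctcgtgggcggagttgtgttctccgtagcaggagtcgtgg
Kif2a, chr2:40164781-40165030, minus strand: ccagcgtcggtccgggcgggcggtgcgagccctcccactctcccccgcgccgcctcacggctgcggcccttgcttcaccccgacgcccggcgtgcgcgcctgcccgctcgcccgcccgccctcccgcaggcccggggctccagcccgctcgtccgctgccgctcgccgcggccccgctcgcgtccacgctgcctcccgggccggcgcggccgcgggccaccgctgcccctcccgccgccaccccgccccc
Dnali1, chr5:142611971-142612220, minus strand: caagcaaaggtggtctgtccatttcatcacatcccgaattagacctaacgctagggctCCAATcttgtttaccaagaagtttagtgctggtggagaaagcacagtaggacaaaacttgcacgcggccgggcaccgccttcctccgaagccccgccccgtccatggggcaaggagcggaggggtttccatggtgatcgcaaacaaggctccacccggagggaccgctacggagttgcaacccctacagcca
Kif5b, chr17:56185136-56185385, plus strand: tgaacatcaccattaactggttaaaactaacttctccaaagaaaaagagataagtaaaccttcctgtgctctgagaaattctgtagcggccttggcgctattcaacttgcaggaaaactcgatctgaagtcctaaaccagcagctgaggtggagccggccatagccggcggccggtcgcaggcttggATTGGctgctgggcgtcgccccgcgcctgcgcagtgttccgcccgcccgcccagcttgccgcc

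The Kif20a window held 3 CCAAT boxes, which began 220, 125 and 98 bases before the start. The Dnali1 window held 1 box at 192 bases and the Kif5b window 1 box at 63 bases, and the Kif2a window, rich in G and C, held none of the 4 motifs. A CCAAT box was thus present before a gene that rose and before one that fell. RefSeq promoters were matched for 52 of the 60 motor genes. A CCAAT box lay in 5 of 10 spindle kinesin windows and in 2 of 9 axonemal windows, against 34.3% of all 27457 windows in the table. TTTGAA lay in 4 of 10 spindle windows and 2 of 9 axonemal windows, against 16.0% of all. Among the spindle kinesins that rose in both fractions, Kif20b had CCAAT at 155 bases and TTTGAA at 116 bases, Kif22 had CCAAT at 231 and 53 bases and TTTGAA at 16 bases, and Kif18b had none. GTTGCC lay in 3 of the 6 ciliary transport windows and 1 of the 9 axonemal windows, against 9.9% of all, and TGACGTCA in 3 of the 52 motor gene windows, against 1.7% of all. These matches describe letters in a window and not binding.

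The first comparison asked how the motor genes differed between round spermatids and pachytene spermatocytes. For it, the background of the pachytene arrays was brought to that of the round spermatid arrays and all 24 arrays were normalized together. In round spermatids 27 of the 60 motor genes were higher and 27 lower (limma, Benjamini-Hochberg adjusted p under 0.05), and 6 did not pass. Over all genes 88.3% passed, 49.2% higher and 39.1% lower, so passing the test was common and the sizes and roles carry the description. The median difference of the motor genes was −0.03, against 0.06 for all genes. The split depended on the scaling: with median centring it was 19 higher and 32 lower, with the deposited scale 16 and 33, and with hybridization controls 14 and 35.

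At least 2-fold higher in round spermatids were 5 genes, namely Klc3, Dynlt5, Kif2c, Dynll2 and Kif23, and at least 2-fold lower were 8, namely Dync1li2, Kif5b, Kif21a, Dctn5, Dync2h1, Dync1i2, Dync1h1 and Dync1i1. These 13 of 60 came from 5 of the 6 roles, and over all genes 20.4% differed by at least 2-fold, so large differences were about as frequent among the motor genes as elsewhere. In young rats every round spermatid array lay above every pachytene array for 16 motor genes and below for 17, while 36.9% and 26.8% of all genes did so. In aged rats the numbers were 23 and 26, while 39.8% and 33.8% of all genes did so.

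**Figure D1:**
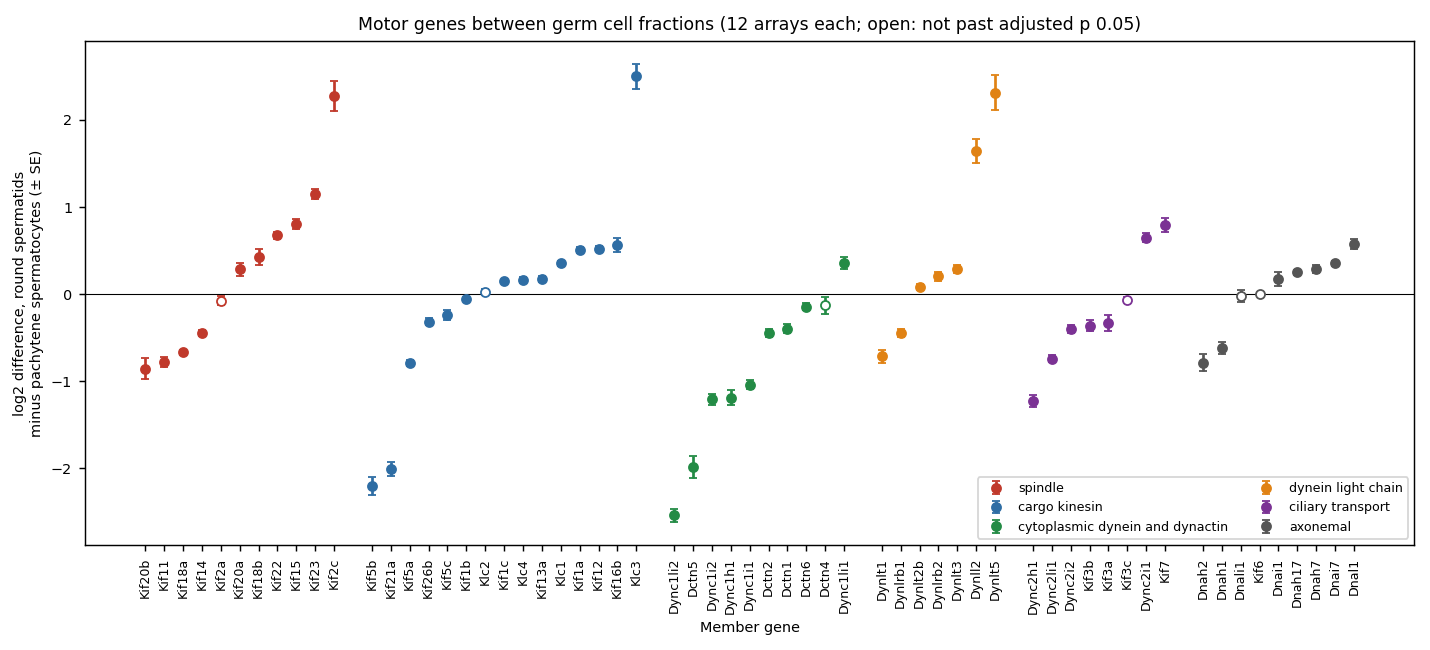
Difference of round spermatids minus pachytene spermatocytes (y axis, log2, bars are ± SE) for each of the 60 motor genes (x axis), coloured by role, from the limma fit on 24 arrays; open points did not pass the test. Klc3 lies at 2.50 and Dync1li2 at −2.54, and cytoplasmic dynein and dynactin lie mostly below 0.

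Cytoplasmic dynein and dynactin was the role with the lowest median difference (−0.74): 8 of its 10 genes were lower in round spermatids, 1 was higher and Dctn4 did not pass (−0.13). Dync1li2 (chr19:538207-561110), a light intermediate chain that links the motor to cargo adaptors, had 11.86, 12.47 and 12.68 as its lowest, median and highest level in young pachytene spermatocytes and 12.68, 12.76 and 12.78 in aged ones. In round spermatids it had 9.56, 9.87 and 10.12 in young and 10.14, 10.23 and 10.33 in aged rats. All round spermatid arrays lay below all pachytene arrays, and the difference was −2.54 (SE 0.08, 5.81-fold lower, adjusted p = 1.22e-18).

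Dctn5 (chr1:186120415-186137146), a subunit of the pointed end of the dynactin filament, ranged from 10.16 to 11.67 over the pachytene arrays of both ages and from 8.35 to 9.86 over the round spermatid arrays, again without overlap. Its difference was −1.98 (SE 0.13, 3.96-fold, adjusted p = 8.26e-13). The heavy chain Dync1h1, the motor subunit itself, was lower by 2.28-fold (−1.19, SE 0.09), the intermediate chain Dync1i2 by 2.31-fold (−1.21, SE 0.06) and its paralogue Dync1i1 by 2.06-fold (−1.04, SE 0.05). The other light intermediate chain, Dync1li1, went the other way from Dync1li2, at 0.36 (SE 0.06), and its second probe set gave 0.61. With median centring, the deposited scale and hybridization controls Dync1li1 turned to −0.16, −0.22 and −0.27, so its direction was not kept.

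The dynactin filament and its capping proteins, on a list of 27 motor partners, showed opposite differences between paralogues. Actr1a, the main actin-related protein of the filament, was lower in round spermatids (−0.84) and Actr1b higher (1.21). Capza1 was lower (−1.20) and Capza3, the capping subunit found in male germ cells, was higher (1.80). Of the 27 partners 14 were higher and 9 lower, among them Kifap3, the adaptor of kinesin-2, at 1.71.

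Of the 15 cargo kinesins and kinesin light chains 8 were higher in round spermatids and 6 lower. Kif5b (chr17:56185386-56222990), the widely expressed heavy chain of kinesin-1, ranged over 10.82 to 11.70 in young and 9.75 to 10.23 in aged pachytene spermatocytes, and over 8.34 to 8.84 and 7.78 to 8.38 in young and aged round spermatids. It was 4.59-fold lower in round spermatids (−2.20, SE 0.10, adjusted p = 1.28e-15), and its second probe set gave −0.42. Klc3 (chr1:88173842-88183806), a light chain of kinesin-1 known from the sperm tail midpiece, ran opposite. Its lowest, median and highest levels were 8.74, 9.01 and 10.38 in young and 8.67, 8.74 and 8.93 in aged pachytene spermatocytes, against 11.44, 11.74 and 12.44 in young and 11.07, 11.23 and 11.37 in aged round spermatids. The difference was 2.50 (SE 0.15, 5.65-fold, adjusted p = 1.6e-13), and the second probe set gave 2.52. Kif21a (chr7:123942079-124058594), a kinesin that restrains microtubule growth at the cell cortex, was 4.02-fold lower (−2.01, SE 0.08), and Kif5a, a neuronal kinesin-1 heavy chain, 1.73-fold lower (−0.79), although its probe sets disagreed in direction. Kif16b and Kif12 were higher by 0.57 and 0.52, the former with probe sets that disagreed.

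The spindle kinesins divided in a similar way, with 6 of 11 higher in round spermatids and 4 lower. Kif23, a core of the centralspindlin complex of cytokinesis, was higher by 1.15 (SE 0.06, 2.22-fold), with 9.14 to 9.58 over the pachytene arrays and 9.92 to 10.71 over the round spermatid arrays. Its second probe set gave 0.25. Kif15, which supports bipolar spindles, was higher by 0.80 and Kif22, a chromokinesin that pushes chromosome arms, by 0.68. Kif20b, which acts late in cytokinesis, was lower by 1.81-fold (−0.86), Kif18a, which dampens chromosome movement, by 1.59-fold (−0.67), and Kif14, another cytokinesis motor, by 1.36-fold (−0.45). Kif18b and Kif20a, at 0.43 and 0.29, turned to −0.0048 and −0.23 under median centring, to −0.063 and −0.29 on the deposited scale and to −0.12 and −0.34 with hybridization controls.

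Kif2c (chr5:135873925-135899267), a microtubule depolymerase of the centromere, showed the largest spindle difference and also a conflict between its probe sets. The chosen probe set was 4.83-fold higher in round spermatids (2.27, SE 0.17), from 9.42 to 11.50 over the pachytene arrays to 11.74 to 12.97 over the round spermatid arrays. The other was lower there (−0.45, adjusted p = 6.02e-06). Kif11, the motor that slides spindle poles apart, was −0.78 on its chosen probe set and 0.42 on its other one. In all, 10 of the 21 motor genes with several probe sets had probe sets called in opposite directions between the cell types: Dnal1, Kif11, Kif13a, Kif16b, Kif26b, Kif2c, Kif3b, Kif5a, Kif5c and Klc1. Over all 4525 genes with several probe sets 31.3% had such opposite calls. The direction of these genes between cell types therefore depends on the probe set.

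Among dynein light chains 5 of 7 were higher in round spermatids and 2 lower. Dynll2 (chr10:73264260-73283042), a hub light chain shared by dynein and other complexes, ranged from 12.74 to 14.31 in young and 12.14 to 12.96 in aged pachytene spermatocytes, against 14.54 to 14.76 and 14.44 to 14.58 in young and aged round spermatids. It was 3.12-fold higher (1.64, SE 0.14), with 0.43 on the second probe set. Dynlt5, a Tctex-type light chain, was 4.97-fold higher (2.31, SE 0.20). Dynlt1, of the same type, was lower by 1.64-fold (−0.72) and Dynlrb1, a roadblock light chain, by 1.36-fold (−0.44).

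Of 8 ciliary transport genes 5 were lower and 2 higher, with Dync2h1, the heavy chain of the dynein that returns cargo from the tip of the cilium, lower by 2.34-fold (−1.22, SE 0.07) and its light intermediate chain Dync2li1 by 1.67-fold (−0.74). The intermediate chain Dync2i1 was higher (0.65), as was Kif7, a ciliary tip kinesin of hedgehog signalling (0.80). The kinesin-2 subunits Kif3a and Kif3b, which carry cargo to the tip, were −0.33 and −0.36, while the second probe set of Kif3b gave 0.80. Of 9 axonemal genes 5 were higher and 2 lower: the heavy chains Dnah2 (−0.78) and Dnah1 (−0.62) of the inner arms fell below their pachytene levels, and the light chain Dnal1 of the outer arms was higher (0.58, with −0.77 on another of its probe sets). Dnah17, Dnah7, Dnai1 and Dnai7 were higher by 0.17 to 0.35. On at least 1 other scaling Dnah7, Dnai1 and Dnai7 turned below 0.

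On a list of 18 genes whose products assemble and dock axonemal dyneins, 6 were higher and 9 lower in round spermatids. The assembly factors Dnaaf10 (−2.14), Zmynd10 (−1.88), Dnaaf5 (−1.62) and Ruvbl2 (−1.45) were lower. Cfap100 (2.39), a tether of inner arm dynein, and Gas8 (1.26), a part of the dynein regulatory complex, were higher.

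The second comparison asked what differed in pachytene spermatocytes of aged rats. Of the 60 motor genes 22 were higher in aged rats and 9 lower, while 29 did not pass. Over all genes 44.6% passed, 25.6% higher and 19.1% lower. The median change was 0.15 against 0.05 for all genes. Every aged rat lay above every young rat for 16 motor genes and below for 5, while 16.7% of all genes lay above and 10% below in this way. Without young rats 1, 10 and 11, 15 motor genes were higher and 8 lower, while calls over all probe sets went from 11643 to 7651. The scaling moved the split: median centring gave 35 higher and 8 lower, hybridization controls 18 and 14, and the deposited scale 11 and 23. These scalings shifted the median of all genes by 0.13, −0.12 and −0.24. Over all 31042 probe sets they called 14786, 10159 and 19153, against 11643 after quantile normalization.

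**Figure D2:**
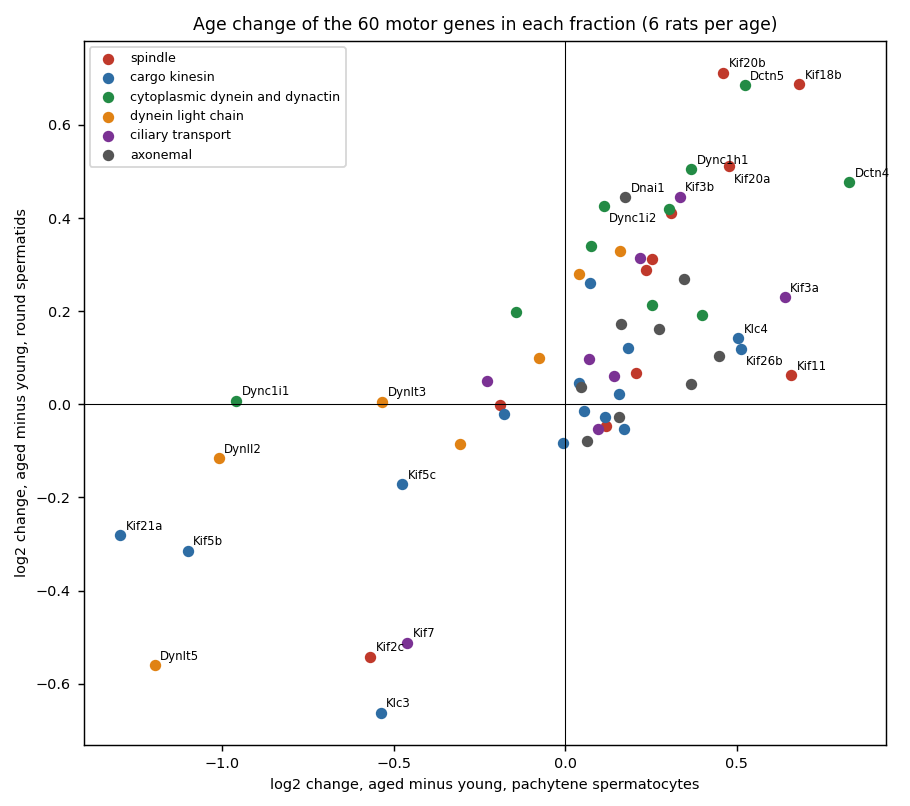
Change with age (aged minus young, log2) of the 60 motor genes in pachytene spermatocytes (x axis) and in round spermatids (y axis), coloured by role, each from its own limma fit with 6 rats per age. Kif5b and Kif21a lie far to the left (−1.10 and −1.30) with smaller changes in round spermatids, and most spindle, dynein and dynactin genes lie above and to the right of 0.

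Of the 11 spindle kinesins 7 rose in aged pachytene spermatocytes, none fell and their median change was 0.25. Each of the 7 passed also without young rats 1, 10 and 11. On the deposited scale 4 spindle kinesins rose and 3 fell, and Kif22 and Kif23 stood at −0.0089 and −0.054. Kif18b (chr10:88370520-88392388), which shortens the astral microtubules of the spindle, ranged from 9.47 to 10.28 in young rats, with young rat 1 lowest, and from 10.53 to 10.73 in aged rats. The groups did not overlap, and the rise was 0.68 (SE 0.12, 1.60-fold, adjusted p = 0.00152). It was 0.43 without the 3 young rats.

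Kif11 had 7.91, 8.53 and 8.80 in young rats and 8.99, 9.11 and 9.28 in aged rats. It rose by 0.66 (SE 0.13, 1.58-fold, adjusted p = 0.00295), and its second probe set rose by 0.67. The young rats 1, 10 and 11 had its 3 lowest values, 7.91, 8.39 and 8.33, and without them the rise was 0.41 (adjusted p = 0.00193). Kif20a, which recruits regulators of cytokinesis to the midzone, rose by 0.48 (adjusted p = 0.00139), from 9.17 to 9.75 in young to 9.94 to 10.05 in aged rats. Kif20b rose by 0.46, Kif22 by 0.31, Kif2a, a depolymerase of spindle poles, by 0.25 and Kif23 by 0.23. Kif2c gave −0.57 (adjusted p = 0.105) on the chosen probe set and rose by 0.66 (adjusted p = 0.0071) on the other. Cenpe and Kifc1, the kinetochore kinesin and the minus-end kinesin of the spindle on the partner list, rose by 0.61 and 0.51.

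**Figure D3:**
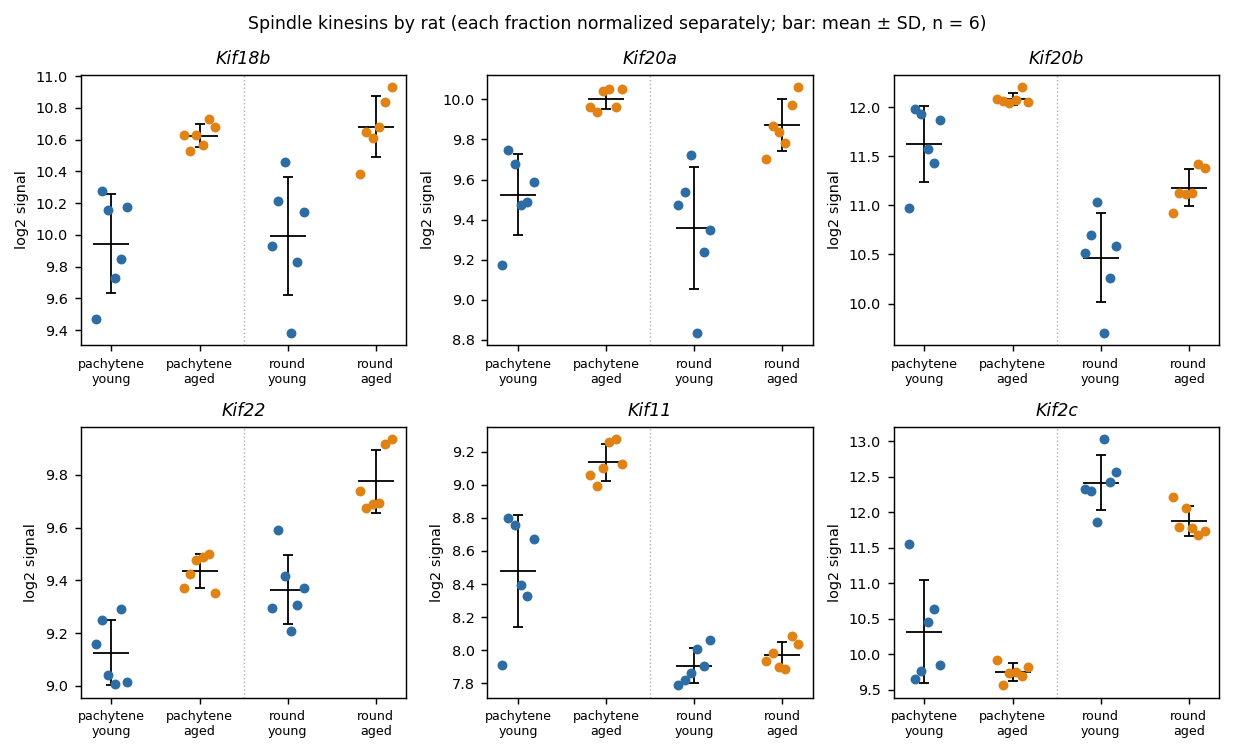
Log2 signal of 6 spindle kinesins in each rat (points) with mean ± SD (bars, n = 6), for young and aged rats in pachytene spermatocytes (left of the dotted line) and round spermatids (right), each fraction normalized on its own. For Kif18b every aged pachytene value lies at 10.53 or above and every young value at 10.28 or below, and Kif2c runs the other way in round spermatids.

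Cytoplasmic dynein and dynactin had 5 of 10 genes higher, 1 lower and a median change of 0.28 in aged pachytene spermatocytes. Dctn4 (chr18:56251187-56279844), a subunit of the pointed end of dynactin, had 8.33, 8.87 and 9.36 in young and 9.53, 9.71 and 9.84 in aged rats. It rose by 0.83 (SE 0.19, 1.78-fold, adjusted p = 0.00618). Its young values formed separate levels, with rats 1, 10 and 11 at 8.33, 8.36 and 8.45 and the others at 9.29 to 9.36. Dctn5 rose by 0.52, Dync1li1 by 0.40, Dync1li2 by 0.30 and Dctn6 by 0.25. Without the 3 young rats 2 of the 10 genes remained higher, and Dctn5, Dync1li1 and Dync1li2 were 0.15 (adjusted p = 0.0683), 0.21 (adjusted p = 0.0573) and 0.08 (adjusted p = 0.213).

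Dync1i1 (chr4:34819313-35132647), the intermediate chain best known from neurons, went against its complex. Its lowest, median and highest levels were 8.52, 8.81 and 9.11 in young and 7.56, 7.77 and 8.23 in aged rats, without overlap. It fell by 0.96 (SE 0.13, 1.94-fold, adjusted p = 0.000474), and by 1.003 without the 3 young rats, so its size did not depend on them. Its paralogue Dync1i2 was 0.11 (adjusted p = 0.29) and the heavy chain Dync1h1 0.37 (adjusted p = 0.0521). Among partners Actr1a rose (0.38) and Actr1b fell (−0.41), and Capza3 fell (−1.18).

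**Figure D4:**
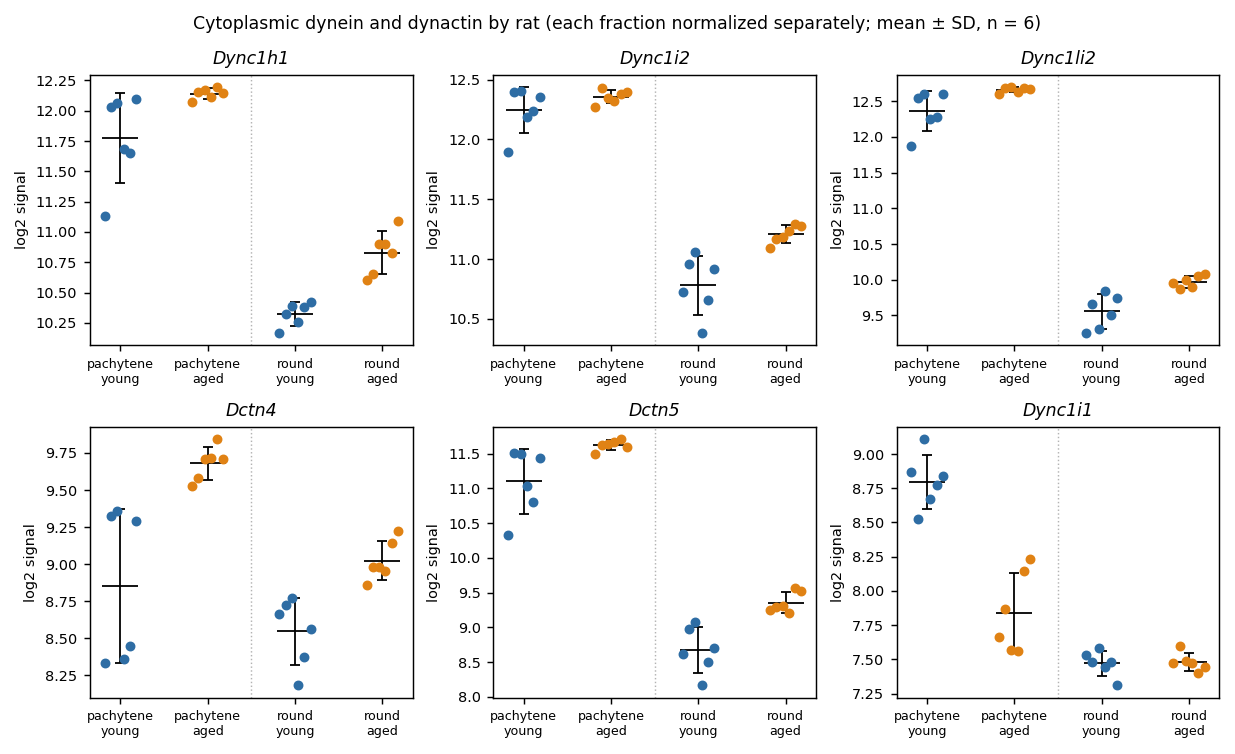
Log2 signal of 6 genes of cytoplasmic dynein and dynactin in each rat (points) with mean ± SD (bars, n = 6), drawn as for the spindle kinesins. Dync1i1 lies at 8.52 to 9.11 in young and at 7.56 to 8.23 in aged pachytene spermatocytes, and the young Dctn4 values lie in separate groups of rats.

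Kif21a and Kif5b had the largest falls among cargo kinesins in aged pachytene spermatocytes, where 4 of 15 genes were higher and 2 lower (median 0.06). Kif21a had 9.35, 9.62 and 10.30 in young and 7.83, 8.45 and 8.79 in aged rats. It fell by 1.30 (SE 0.18, 2.46-fold, adjusted p = 0.000463), and it was the only 1 of the 31 called motor genes to keep its call under every alternative run for this comparison. Those alternatives include the label number as a replicate block, which called 368 of 31042 probe sets and 1 motor gene. That fit says little about stability and left no room for a second gene to keep its call. Kif5b had 10.94, 11.09 and 11.73 in young and 9.92, 10.19 and 10.40 in aged rats. It fell by 1.10 (SE 0.14, 2.14-fold, adjusted p = 0.000364), and its second probe set fell by 0.39. Neither gene overlapped between the ages. They fell by 1.15 and 0.91 when the 3 young rats were left out.

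The kinesin light chain Klc4 rose by 0.50 (SE 0.08, 1.42-fold, adjusted p = 0.000927), from 7.99 to 8.50 in young to 8.76 to 8.89 in aged rats. Kif26b, an atypical kinesin, rose by 0.51, while Klc2 (0.18) and Kif12 (0.17) rose by less and turned to −0.076 and −0.18 on the deposited scale. Klc2 was 0.07 (adjusted p = 0.289) without the 3 young rats. Klc3 was −0.54 (adjusted p = 0.127), with 10.54, 9.72 and 9.35 in young rats 1, 10 and 11 and 8.62 to 8.97 in all aged rats. On the deposited scale no cargo kinesin was higher and 9 were lower, and with hybridization controls none was higher and 6 were lower. The direction of this role as a whole thus depended on the scaling, but Kif21a and Kif5b were lower on each scale. Trak1, an adaptor that joins kinesin-1 to mitochondria, fell by 0.81.

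None of the 7 dynein light chains rose and 4 fell (median −0.31). Dynlt5 fell by 1.20 (SE 0.33, 2.29-fold, adjusted p = 0.015) and Dynll2 by 1.01 (SE 0.26, 2.01-fold, adjusted p = 0.00975). Dynll2 had 12.66, 13.35 and 14.26 in young and 12.12, 12.23 and 12.88 in aged rats, and the groups overlapped. Young rats 1, 10 and 11 had its 3 highest values, 14.26, 13.77 and 13.82, and also those of Dynlt5, 12.06, 11.24 and 10.85. Without them Dynll2 fell by 0.44 (adjusted p = 0.0483) and Dynlt5 by 0.49 (adjusted p = 0.0355). These are the rats with the highest late spermiogenesis list (7.50, 7.13 and 7.18 above the array median), and its part in the result was not tested. Dynlt3, on chromosome X, fell by 0.53 and Dynlrb1 by 0.31, both without overlap between the ages.

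Among ciliary transport genes 2 of 8 rose and 2 fell. Kif3a rose by 0.64 (SE 0.15, 1.56-fold, adjusted p = 0.0058), from 10.89 to 11.73 in young to 11.91 to 12.13 in aged rats, and Kif3b by 0.33 (adjusted p = 0.0107). The young Kif3a values formed separate levels, with rats 1, 10 and 11 at 10.89, 11.01 and 11.07 and the others at 11.65 to 11.73. Kifap3, the adaptor of Kif3a and Kif3b, fell by 0.62 (adjusted p = 0.0432). Kif7 fell by 0.46 and Dync2i1 by 0.23, and the latter turned to 0.071 under median centring and was −0.07 (adjusted p = 0.335) without the 3 young rats. Of the 9 axonemal genes 4 rose and none fell (median 0.17): Dnah2 by 0.45, Dnah1 by 0.37, Dnali1, an inner arm light chain, by 0.34 and Dnal1 by 0.27. When the 3 young rats were left out 1 axonemal gene rose, while Dnah2 was 0.11 (adjusted p = 0.194), Dnali1 0.13 (adjusted p = 0.092) and Dnal1 0.18 (adjusted p = 0.0524). Of the 18 genes of axonemal dynein assembly and docking 13 rose, with Ccdc40, a ruler of the axonemal repeat, at 0.87 and Zmynd10 at 0.56, and 2 fell, Cfap100 (−1.10) and Ruvbl1 (−0.35). Without the 3 young rats 9 of the 18 rose and none fell.

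The third comparison asked the same of round spermatids. Of the 60 motor genes 19 were higher in aged rats and 7 lower, while 34 did not pass. Over all genes 24.9% passed, 12.4% higher and 12.5% lower, and the median change was 0.10 for the motor genes against 0.00 for all. Every aged rat lay above every young rat for 9 motor genes and below for 4, while 6.37% of all genes lay above and 5.35% below. Without young rats 1, 10 and 11, 10 motor genes were higher and 2 lower, while calls over all probe sets went from 5320 to 1705. Median centring gave 13 higher and 8 lower. The deposited scale gave 37 higher and 5 lower and hybridization controls 36 and 4, with shifts of the median of all genes of 0.14 and 0.18. Over all 31042 probe sets median centring called 3546, the deposited scale 17172 and hybridization controls 8716, against 5320 after quantile normalization.

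Cytoplasmic dynein and dynactin had 8 of 10 genes higher in aged round spermatids and none lower, with a median change of 0.38. Dync1h1 had 10.17, 10.35 and 10.42 in young and 10.60, 10.86 and 11.09 in aged rats. The groups did not overlap, and it rose by 0.51 (SE 0.07, 1.42-fold, adjusted p = 0.00187). Dctn5 had 8.17, 8.66 and 9.07 in young and 9.20, 9.30 and 9.57 in aged rats, and it rose by 0.69 (SE 0.13, 1.61-fold, adjusted p = 0.00425). Dctn4 rose by 0.48, Dync1i2 by 0.43, Dync1li2 by 0.42, Dctn2, the dynamitin subunit, by 0.34, Dctn6 by 0.21 and Dctn1, the subunit that binds microtubules, by 0.20. Dync1i1, which fell in pachytene spermatocytes, was 0.01 (adjusted p = 0.935). Without the 3 young rats 5 of the 10 were higher and all 10 changes were above 0, and Dync1h1 rose by 0.45 (adjusted p = 0.0188). Those that no longer passed were Dctn1 (0.19, adjusted p = 0.138), Dctn2 (0.31, adjusted p = 0.104) and Dctn6 (0.14, adjusted p = 0.128). The pachytene marker list was also higher in aged round spermatids, with 4 of 11 markers called higher and its mean at 2.37 ± 0.08 above the array median against 2.11 ± 0.13 (SD, n = 6) in young rats. The part of this list in the result was not tested.

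Of the 11 spindle kinesins 5 rose in aged round spermatids and 1 fell (median 0.29). Kif20b had 9.70, 10.55 and 11.04 in young and 10.92, 11.12 and 11.42 in aged rats and rose by 0.71 (SE 0.17, 1.64-fold, adjusted p = 0.0131). Kif18b rose by 0.69 (SE 0.15, 1.61-fold, adjusted p = 0.00759), from 9.38 to 10.46 in young to 10.39 to 10.93 in aged rats. For both genes the groups overlapped slightly, and young rat 10 had the lowest value. Kif20a rose by 0.51, Kif22 by 0.41, without overlap, and Kif2a by 0.31. Kif2c fell by 0.54 (adjusted p = 0.0284), with young rat 10 highest at 13.03, and its second probe set was 0.07 (adjusted p = 0.378). Without the 3 young rats 3 spindle kinesins rose and none fell. Kif20b was then 0.40 (adjusted p = 0.0583), Kif2a 0.19 (adjusted p = 0.104) and Kif2c −0.36 (adjusted p = 0.179), and Kif18b rose by 0.41 (adjusted p = 0.0417). Kif11, which rose in pachytene spermatocytes, was 0.06 (adjusted p = 0.467).

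The cargo kinesins had 1 of 15 genes higher, Klc4 (0.14), and 4 lower in aged round spermatids. Klc3 had 11.34, 11.68 and 12.47 in young and 10.91, 11.10 and 11.26 in aged rats, without overlap. It fell by 0.66 (SE 0.15, 1.58-fold, adjusted p = 0.0106), its second probe set fell by 0.68, and without the 3 young rats it fell by 0.45 (adjusted p = 0.0383). Kif5b fell by 0.31, Kif21a by 0.28 and Kif5c, a neuronal kinesin-1 heavy chain, by 0.17. The last of these stood at 0.0029 with hybridization controls. Without the 3 young rats Kif5b was −0.23 (adjusted p = 0.175), Kif21a −0.19 (adjusted p = 0.124) and Klc4 0.09 (adjusted p = 0.396), so these calls were lost, while Kif5c fell by 0.14 (adjusted p = 0.0479).

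**Figure D5:**
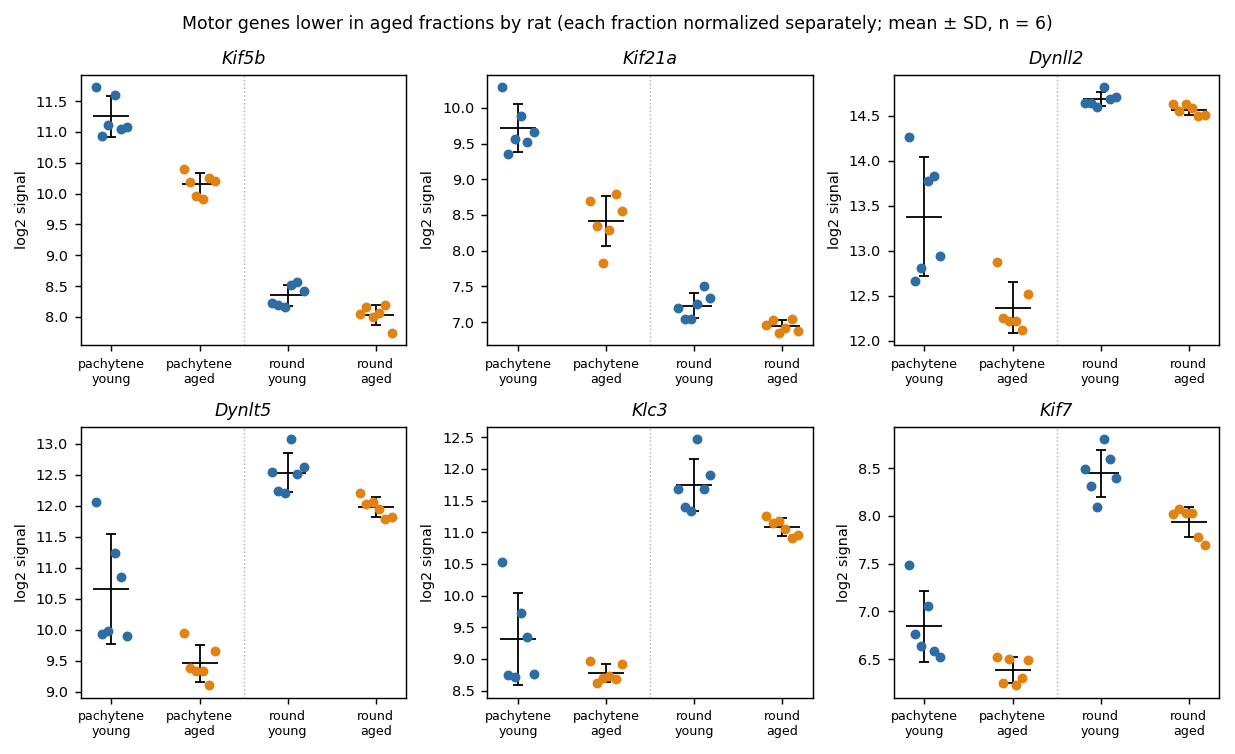
Log2 signal of 6 motor genes that were lower in aged rats in at least 1 fraction, in each rat (points) with mean ± SD (bars, n = 6), drawn as for the spindle kinesins. Klc3 lies at 11.34 to 12.47 in young and at 10.91 to 11.26 in aged round spermatids, and Kif21a at 9.35 to 10.30 and 7.83 to 8.79 in young and aged pachytene spermatocytes.

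Of the dynein light chains Dynlt5 fell by 0.56 (adjusted p = 0.0087), with 12.21, 12.53 and 13.07 in young and 11.78, 11.99 and 12.21 in aged rats and no overlap, and Dynlrb2 rose by 0.28 (adjusted p = 0.0465). Neither passed without the 3 young rats, with Dynlt5 at −0.38 (adjusted p = 0.05, at the threshold) and Dynlrb2 at 0.12 (adjusted p = 0.176). Of the 8 ciliary transport genes Kif3b rose by 0.45 (adjusted p = 0.005) and Dync2h1 by 0.31 (adjusted p = 0.00422), both without overlap. Kif7 fell by 0.51 (adjusted p = 0.00603), from 8.09 to 8.81 in young to 7.69 to 8.07 in aged rats, and was −0.33 (adjusted p = 0.0562) without the 3 young rats. Kif3a was 0.23 (adjusted p = 0.0504), and Kifap3 fell by 0.32 (adjusted p = 0.0067), so this adaptor was lower in both fractions of aged rats while Kif3b was higher in both. Of the 9 axonemal genes Dnai1, an intermediate chain of the outer arms, rose by 0.44 and Dnali1 by 0.27, and neither passed without the 3 young rats (0.38, adjusted p = 0.164, and 0.18, adjusted p = 0.227). In the assembly and docking list 8 of 18 rose and 2 fell, with Zmynd10 at 0.87 (adjusted p = 0.00187). Among the 27 partners 10 rose and 6 fell, with Spdl1, an adaptor of dynein at kinetochores, at 0.60 and Bicd2, a cargo adaptor of dynein, at −0.67.

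Last, the change with age was compared between the fractions, as the change in round spermatids minus that in pachytene spermatocytes. The comparisons above share the same rats, and this test was made on all 24 arrays, normalized together as for the cell types. Its values therefore need not equal the difference of the changes with age given above, which come from each fraction normalized on its own. Of the 60 motor genes 6 differed upward and 1 downward, against 7.34% and 8.9% of all genes (16.2% in all). These counts depended on the scaling: the deposited scale gave 41 upward and 0 downward (limma, 1 downward after quantile normalization), hybridization controls 19 and 0, and median centring 7 and 3. Over all 31042 probe sets these scalings called 25120, 8006 and 11200, against 4054 after quantile normalization. Leaving out any 1 of aged rats 3, 5, 8 or 9 gave 3 upward. Calls over all 31042 probe sets were then 2838, 2444, 2316 and 2789, so calls were lost across the series as well. Upward here means that the signed change from young to aged was higher in round spermatids than in pachytene spermatocytes, whichever direction each change had.

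Dync1i1, for which a fall was called in pachytene spermatocytes only, differed by 0.62 (SE 0.10, adjusted p = 0.00072). The fall of Kif5b was larger in pachytene spermatocytes by 0.78 (SE 0.20, adjusted p = 0.0137) and that of Kif21a by 0.76 (SE 0.17, adjusted p = 0.00557). Dync1i1 and Kif5b kept this call under all 24 alternatives, and Kif21a lost it without the background offset (adjusted p = 0.0786). The second probe set of Kif5b showed no such difference (0.04, adjusted p = 0.814). Dync1i1 and Kif21a were dim in round spermatids. There Dync1i1 lay above 38.5% of probe sets in young and 39.0% in aged rats, and Kif21a above 24.6% and 11.2%. How far low signals limited a fall in that fraction was not tested. Dynll2 differed by 0.92 (SE 0.28, adjusted p = 0.033) and by 0.96 on its second probe set, but by 0.38 (adjusted p = 0.195) without young rats 1, 10 and 11. Dctn1 (0.34) and Dynlt3 (0.27) also lost the call without these rats, at 0.23 (adjusted p = 0.0975) and 0.15 (adjusted p = 0.145). Kif11 differed by −0.39 (SE 0.12, adjusted p = 0.0302), and by −0.39 on its second probe set, from a rise of 0.66 in pachytene spermatocytes and a change of 0.06 in round spermatids. Without the 3 young rats the difference was −0.24 (adjusted p = 0.166). For the other 53 genes, Dynlt5 (0.70, adjusted p = 0.269) and Dync1li2 (0.05, adjusted p = 0.859) included, a difference between the fractions was not detected, which does not show that the changes were equal.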

How the data were processed

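The authors deposited 1 log2 signal per probe set for each of 24 rat arrays. How probes were summarised was not given in sources used here. Array medians in pachytene spermatocytes were 7.17 ± 0.14 (young) and 6.79 ± 0.12 (aged), and in round spermatids 7.64 ± 0.05 (young) and 7.77 ± 0.07 (aged; SD, n = 6). Arrays were therefore quantile normalized, within each fraction for the age comparisons. Low signals differed between the fractions, so across fractions an offset of 90.3 was added to the linear pachytene values. With it, 45 control probe sets without rat targets differed by −0.03 ± 0.17, against 0.61 ± 0.77 before (SD over probe sets). Dim transcripts are thereby compressed, and remaining processing differences between the fractions cannot be told apart from cell type.

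After leaving out 57 control probe sets, 31042 were tested with limma 3.58.1 (lmFit, eBayes) in R 4.3.3, with Benjamini-Hochberg adjustment over all 31042 and a threshold of 0.05, and no filter on low signals. No count of reads exists for arrays, so their number limits the precision. The same number in the labels marks the fractions of 1 rat. After removing group means these correlated at −0.08 to 0.38, and the own fraction was the best match for 6 of 12 rats. The steps were tested on simulated data. The members, their roles and the gene lists were chosen with earlier results of these data known. Every member could be named, with tests for up to 4 per role and direction and for small families. Positions and promoters are RefSeq's on GRCr8, and symbols are those of the platform annotation. Alternatives were other scalings, a filter on the 40% dimmest probe sets, other variance models and array weights, other choices of probe set, a 1.5-fold minimum, leaving out rats, replicate blocks and no offset.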

Additional observations from a re-analysis of the deposited data

Results flagged for a closer look

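A single rat stood far from the other 5 of its group in 4 of the 114 groups of values examined, and about 1 in 20 groups does so by chance. Kif3a (12.1) and Kif20b (12.2) were highest in aged rat 9 in pachytene spermatocytes. Dnali1 (11.8) was highest in young rat 2 and Dynlrb2 (12.7) lowest in young rat 10 in round spermatids.

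The change with age differed between the fractions, by the interaction test in limma, for 7 motor genes. Round minus pachytene, the differences were 0.92 for Dynll2, 0.78 for Kif5b, 0.76 for Kif21a, 0.62 for Dync1i1, 0.34 for Dctn1, 0.27 for Dynlt3 and −0.39 for Kif11.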

How the results depend on the processing

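Median centring gave 35 motor genes higher in aged pachytene spermatocytes and 3 with a downward difference between the fractions. It turned Dync2i1 with age in pachytene spermatocytes to 0.071 and, between cell types, Dnai7 to −0.013, Kif1b to 0.054, Klc4 to −0.29, Dync1li1 to −0.16, Kif18b to −0.0048 and Kif20a to −0.23. The deposited scale gave 11 higher and 23 lower with age in pachytene spermatocytes, 37 higher in round spermatids, 16 higher between cell types, and 41 upward and 0 downward differences between the fractions (limma, which gave 1 downward in the main setting). It turned Kif12, Klc2, Kif22 and Kif23 with age in pachytene spermatocytes to −0.18, −0.076, −0.0089 and −0.054. Between cell types it turned Dnah7 to −0.033, Dnai7 to −0.071, Klc1 to −0.0043, Klc4 to −0.34, Dync1li1 to −0.22, Kif18b to −0.063 and Kif20a to −0.29. Hybridization controls gave 14 lower with age in pachytene spermatocytes, 36 higher and 4 lower in round spermatids, 14 higher between cell types, and 19 upward and 0 downward differences. They turned Kif12 to −0.058 with age in pachytene and Kif5c to 0.0029 in round spermatids, and between cell types Dnah7 to −0.088, Dnai1 to −0.045, Dnai7 to −0.13, Kif16b to −0.052, Klc1 to −0.059, Klc4 to −0.40, Dync1li1 to −0.27, Dynlt2b to −0.019, Kif18b to −0.12 and Kif20a to −0.34. The mean over probe sets turned Kif3b between cell types to 0.22, and young rats alone turned Dynlt2b to −0.0062. Calls over all probe sets also moved with the scaling, as given with the age results above. The cause of the changes with scaling was not tested.

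Asking for 1.5-fold left 4 higher and 5 lower with age in pachytene spermatocytes, 3 and 1 in round spermatids, 9 and 16 between cell types and 0 downward differences. Over all 31042 probe sets it lowered the calls with age from 11643 to 3262 in pachytene and from 5320 to 332 in round spermatids. Between cell types they fell from 26420 to 8739, and for the differences between the fractions from 4054 to 579. Without young rats 1, 10 and 11, 10 were higher and 2 lower with age in round spermatids. Leaving out the 40% dimmest probe sets, which kept 56 members, gave 2 downward differences, and array weights gave 3. For this difference these runs called 3793 of 18625 and 5103 of 31042 probe sets, against 4054 of 31042 in the main setting. Leaving out 1 rat at a time gave 16 to 23 higher and 7 to 11 lower with age in pachytene spermatocytes, 15 to 23 and 5 to 8 in round spermatids, 25 to 27 and 26 to 28 between cell types, and 3 to 8 upward and 0 to 4 downward differences. Calls over all probe sets then ran from 8949 to 12542, 3614 to 6551, 26052 to 26288 and 2316 to 4829 in these 4 comparisons.

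With the label number as a replicate block, 0 motor genes were higher and 1 lower with age in pachytene spermatocytes, and 0 and 0 in round spermatids. Young and aged rats of 1 number are different animals and share only 3 numbers, and their deviations correlated at −0.58 to 0.02 in pachytene and −0.30 to −0.02 in round spermatids, so these fits say little about stability. With the rat as a replicate block, which is a true pairing, no count between cell types or of differences moved by over 1.5 times.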

Other observations

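Among the partners of the motors not described above, several members of the dynein machinery passed the test in aged round spermatids (limma, adjusted p under 0.05). The capping subunits Capza1, Capza2 and Capzb of the dynactin filament rose by 0.56, 0.29 and 0.13. The cargo adaptors Hook1 and Hook2 rose by 0.42 and 0.27, and Pafah1b1, which holds dynein on microtubules, by 0.14. Ndel1, which binds Pafah1b1, fell by 0.47 and Actr1b by 0.34. In aged pachytene spermatocytes Hook2 rose by 0.57 and Capza1 by 0.23, while Bicd2, Rab11fip3, Trak2 and Nde1 fell by 0.56, 0.77, 0.27 and 0.28. Without young rats 1, 10 and 11, 4 of the 27 partners rose and 4 fell in pachytene spermatocytes, and 5 rose and 2 fell in round spermatids.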
